A study of Mus musculus with 8 samples.

Results

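The genes described here are 9 genes of simple (single-layered) epithelium: the keratins Krt7, Krt8, Krt18 and Krt19, the claudins Cldn3, Cldn4 and Cldn7, the adhesion molecule Epcam and the protease inhibitor Spint2. They are 9 of the 54116 genes obtained by summing the deposited FPKM (fragments scaled to transcript length in kilobases and to library size) of all transcripts of a gene. The list was selected on the FPKM of these same libraries, in which most of its genes stood out between the 2 groups, so their differences between the groups are given library by library as a description and without a test.

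The libraries came from mesenchymal stromal cells of untreated C57BL/6J mice, which were male, 8 weeks old and fed a standard diet. Cells from digested pancreas (pMSC, 4 libraries) and from inguinal white adipose tissue (iwatMSC, 4 libraries) were sorted as CD31-, CD45- and SCA1+, that is, depleted of endothelial and blood cells and positive for a progenitor surface antigen, and then expanded in culture for 4 days before RNA isolation. No epithelial antigen was part of the gate, and cells of several mice were pooled. Nothing in the labels or methods tells if the replicates of a group were separate pools of mice or separate cultures, so the p-values below measure only the spread between these libraries, which may be technical. In bulk RNA such as this, fewer cells of a type and less RNA per cell cannot be told apart.

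Keratins are intermediate filament proteins that assemble only as pairs of a type I and a type II chain. Simple epithelia such as the ducts and acini of the pancreas carry mainly the type II chain KRT8 with the type I chain KRT18, to which ductal cells add KRT7 and KRT19. Claudins seal the tight junctions between epithelial cells, EPCAM is an adhesion molecule of the lateral membrane that binds claudin 7, and SPINT2 inhibits serine proteases of the epithelial surface, among them the protease that cleaves EPCAM. Mesenchymal cells are built on vimentin filaments and as a rule make little of these proteins, although mesothelium, the flat lining of the body cavities, carries keratins as well.

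Where the genes lie is shown first, because 4 of the 9 sit in neighbouring pairs. Krt8 (ENSMUSG00000049382, chr15:101996698-102004482 in GRCm38, minus strand) and Krt18 (ENSMUSG00000023043, chr15:102028180-102032027, plus strand) are transcribed away from each other across a gap of 23.7 kb that holds 0 other protein-coding genes. Cldn4 (ENSMUSG00000047501, chr5:134945119-134946934, minus strand) and Cldn3 (ENSMUSG00000070473, chr5:134986214-134987472, plus strand) form a second divergent pair, 39.3 kb apart with 0 protein-coding genes between them. The 2 pairs behaved differently in the libraries, as described below.

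Promoters of 8 of the 9 genes, 9 promoters in all, were matched in RefSeq (GRCm38.p6), and the 250 bases before each start were searched on both strands. The letters CACCTG are an E-box, which repressors of epithelial genes of the Snail and Zeb families read, and on the opposite strand they appear as CAGGTG. They stood in 7 of the 9 promoters, against 17.2% of all 32851 promoters of that length. Spint2 held 3 copies, Epcam and Cldn7 held 2 each, and Krt7, Krt8, Krt18 and Cldn4 held 1 each, whereas Cldn3 held none in this window. Letters alone do not show that a factor binds. Of 4 other motifs, GGGCGG (SP1) was found in 6 of the 9 promoters against 32.7% of all, and TGANTCA (AP-1) in Cldn4 only, with 2 copies, against 6.7% of all. TATAAA had 0 matches in the 9 against 12.4% of all, and the Grainyhead letters AACCNGTT had 0 against 1.8%. A missing match says only that the letters are not in this window. Krt19 had no entry and was not searched, and no relation between the E-box and the levels below was tested. To show the E-box in its surroundings in a keratin, a claudin, Epcam and Spint2, 4 stretches are printed 5′ to 3′ on the strand of the gene, with the E-box in capitals. The Krt18 stretch was shortened to 214 bases because its last bases before the RefSeq start lie in an annotated exon. They are chr15:102027966-102028179 (plus) for Krt18, chr5:134946935-134947184 (minus) for Cldn4, chr17:87635729-87635978 (plus) for Epcam and chr7:29281978-29282227 (minus) for Spint2, all upstream of the annotated exons.
Krt18: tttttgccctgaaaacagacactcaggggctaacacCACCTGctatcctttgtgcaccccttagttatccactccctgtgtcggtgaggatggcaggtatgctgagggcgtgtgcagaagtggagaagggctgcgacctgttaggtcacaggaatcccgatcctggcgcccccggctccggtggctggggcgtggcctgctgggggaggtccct
Cldn4: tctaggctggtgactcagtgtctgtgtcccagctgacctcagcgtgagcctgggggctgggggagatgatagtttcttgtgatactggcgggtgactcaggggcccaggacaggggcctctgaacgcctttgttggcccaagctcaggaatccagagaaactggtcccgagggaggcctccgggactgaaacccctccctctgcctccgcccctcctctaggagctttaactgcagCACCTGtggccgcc
Epcam: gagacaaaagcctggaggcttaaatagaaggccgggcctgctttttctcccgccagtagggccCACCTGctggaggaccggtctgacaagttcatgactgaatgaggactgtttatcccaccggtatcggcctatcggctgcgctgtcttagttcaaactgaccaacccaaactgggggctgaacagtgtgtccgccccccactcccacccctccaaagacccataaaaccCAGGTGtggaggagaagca
Spint2: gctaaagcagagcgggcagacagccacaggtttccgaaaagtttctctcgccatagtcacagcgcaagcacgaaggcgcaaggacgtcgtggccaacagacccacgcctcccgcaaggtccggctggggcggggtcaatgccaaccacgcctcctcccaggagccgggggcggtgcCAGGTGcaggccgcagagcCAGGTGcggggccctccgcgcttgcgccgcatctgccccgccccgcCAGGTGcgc

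Across the 9 genes, all 4 pMSC libraries lay above all 4 iwatMSC libraries in 7, below them in 1 (Krt19), and overlapped with them in 1 (Cldn3). Among all 13345 genes that averaged at least 1 FPKM over the 8 libraries, 10.9% had every pMSC library above and 13.4% every pMSC library below. Since the genes were chosen for this contrast, nothing is read from that difference. Only 5 of the 9 (Krt8, Krt18, Krt19, Cldn3 and Cldn4) reached the average of 1 FPKM. Krt7, Cldn7, Epcam and Spint2 did not. The median difference of the 9 genes, pMSC minus iwatMSC, was 0.77 on the log2(FPKM + 1) scale, and the median over all tested genes was -0.03. That scale understates the change of genes as low as these.

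The depth behind such low values was read from the steps between them. In single-transcript genes 37 to 39.9% of low values fell within 0.05 of a whole number of fragments when each library was taken to hold about 16 M fragments (15.8 to 16.3 M), against 10% for values spread evenly. The depth of each library was chosen for the best match to low values of these same genes. Part of the excess over 10% is therefore built in, and it is no independent check of the depth. The fragment numbers below rest on that estimate and are approximate, and their intervals cover counting error only. The libraries resembled each other, with 13092 to 13313 genes at 1 FPKM or more and 437673 to 458414 FPKM in total.

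**Figure D1:**
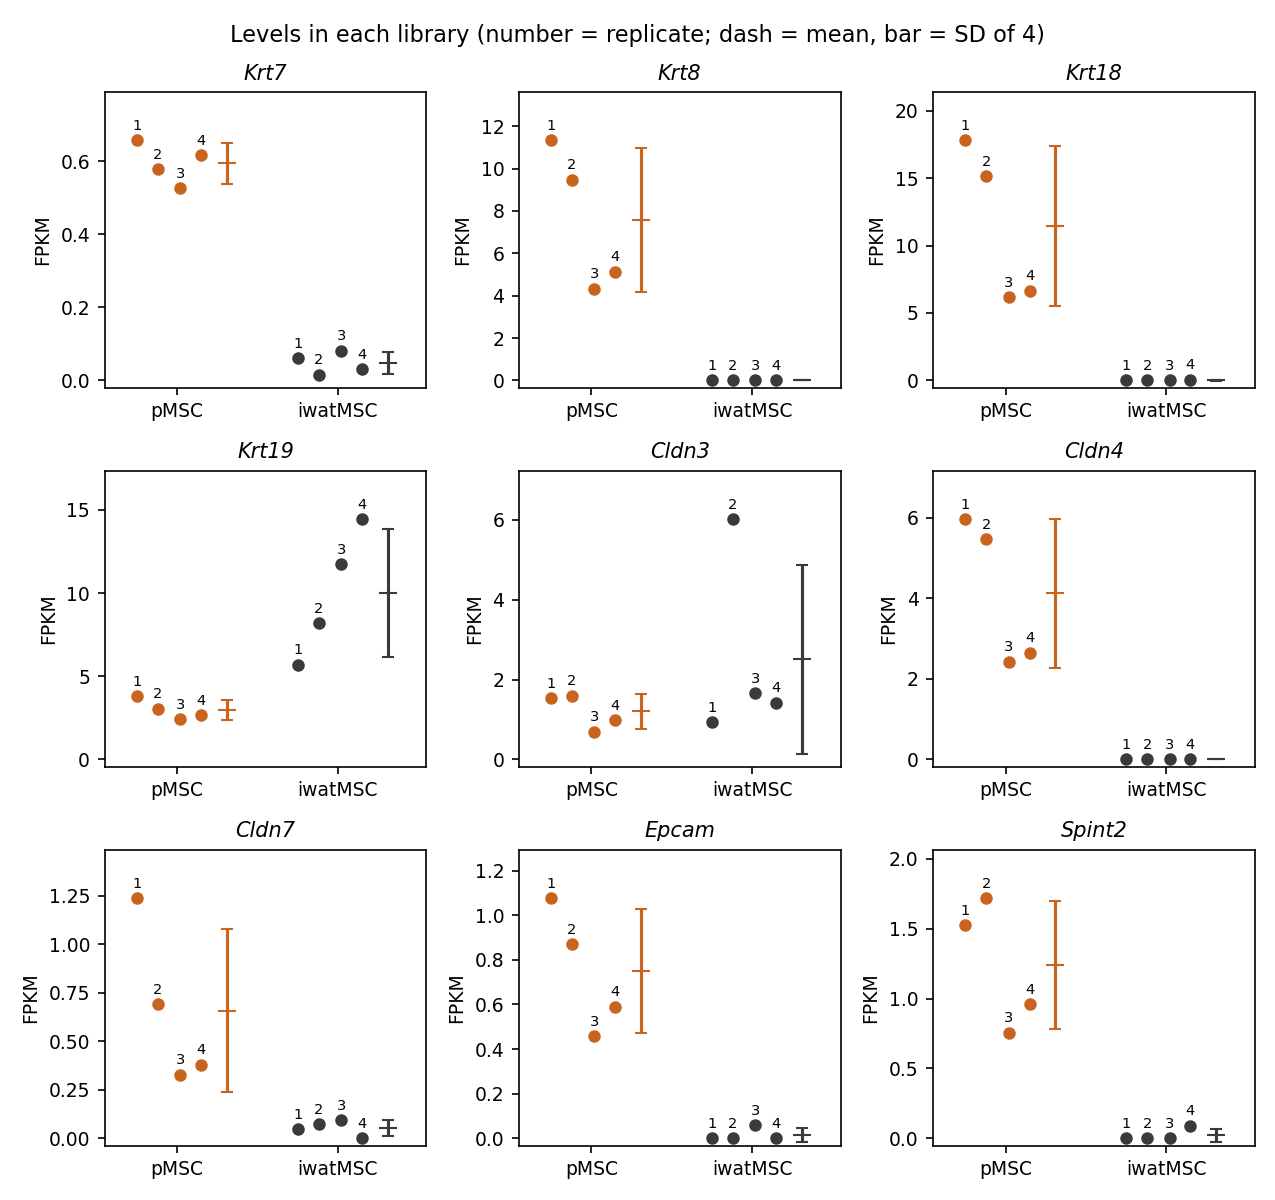
FPKM (y axis, a separate linear scale for each gene) of the 9 genes in the 4 pMSC libraries (orange) and the 4 iwatMSC libraries (dark grey). Numbers are replicates, and dashes with bars give the mean and SD of 4 libraries. Krt8 and Cldn4 were listed at 0 in all iwatMSC libraries, Krt19 was higher in iwatMSC, and Cldn3 overlapped between the groups.

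The type II keratin Krt8 stood at 11.3, 9.48, 4.34 and 5.13 FPKM in pMSC replicates 1 to 4 and was listed at 0 in all 4 iwatMSC libraries. Replicates 1 and 2 were thus well above replicates 3 and 4, and the iwatMSC libraries were below what could be detected at this depth. The pMSC mean was 7.57 ± 3.38 (SD, n = 4), which is 79.4-fold the 0.0954 FPKM that 3 fragments in a library would give. In fragments this was 355 (95% exact Poisson interval 319 to 394) in replicate 1 and 136 (114 to 161) in replicate 3, so the difference between these replicates exceeded counting error. The processed pseudogene Krt8-ps, whose sequence resembles Krt8, was at 0.458, 0.401, 0.129 and 0.067 FPKM in pMSC and at 0 in iwatMSC, and how reads were shared between the 2 loci is not known.

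Its type I partner Krt18 followed the same order. It stood at 17.8, 15.1, 6.15 and 6.66 FPKM in pMSC replicates 1 to 4, and iwatMSC replicates 1 to 3 were listed at 0 with replicate 4 at 0.0443 FPKM, about 1 fragment. All pMSC libraries lay far above all iwatMSC libraries, with a pMSC mean of 11.4 ± 5.92 (SD, n = 4). Krt18 was the more abundant of the pair in every pMSC library, and within a library the ratio of Krt8 to Krt18 (both per kilobase) ranged only from 0.627 to 0.770.

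Krt7, a type II keratin of ducts and of mesothelium, was low but differed from Krt8 and Krt18 in the evenness of its gene sum. It stood at 0.658, 0.578, 0.526 and 0.617 FPKM in pMSC and at 0.0610, 0.0152, 0.0817 and 0.0311 FPKM in iwatMSC. The groups did not overlap, with means of 0.595 ± 0.0563 and 0.0473 ± 0.0298 (SD, n = 4 each), a ratio of 12.6. The coefficient of variation of this sum over the pMSC libraries was 9.47%, against 44.6% for Krt8 and 51.7% for Krt18. On gene sums, Krt7 was the 1 gene of the 9 in which replicates 1 and 2 did not both exceed replicates 3 and 4. This exception rested on minor transcripts. In replicate 4 a retained-intron transcript added 0.147 FPKM and a short processed transcript 0.149 FPKM. On the longest transcript alone pMSC stood at 0.554, 0.542, 0.462 and 0.321 FPKM, with replicates 1 and 2 above 3 and 4.

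Krt19, the smallest type I keratin and a usual marker of pancreatic duct, went the other way. It stood at 3.80, 3.05, 2.41 and 2.65 FPKM in pMSC and at 5.69, 8.19, 11.8 and 14.5 FPKM in iwatMSC. Every iwatMSC library lay above every pMSC library, and the mean was 3.36-fold higher in iwatMSC (10.02 ± 3.86 against 2.98 ± 0.608, SD, n = 4 each). The lowest iwatMSC library held about 144 fragments and the highest pMSC library about 96.

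Because type I and type II chains pair, the keratins were also summed by type. Of 50 keratin genes in the table only 5 reached 1 FPKM in any library, namely Krt8, Krt10, Krt18, Krt19 and Krt80. Type I transcripts summed to 9.43 to 23.3 FPKM in pMSC and 7.82 to 17.3 FPKM in iwatMSC, and type II transcripts to 11.2 to 15.9 and 9.16 to 12.3 FPKM, so the summed levels of the groups overlapped for both types. What differed was the gene that supplied them. Krt18 made up 61.9 to 76.5% of type I transcripts in pMSC, and Krt19 made up 72.8 to 86.5% in iwatMSC. Among type II transcripts Krt80 supplied 98.4 to 99.3% in iwatMSC, whereas in pMSC Krt8 led in replicates 1 and 2 and Krt80 in replicates 3 and 4. Krt80, a type II keratin that was not among the 9, fell from 10.4 ± 1.31 FPKM in iwatMSC to 5.12 ± 1.27 in pMSC (SD, n = 4 each; log2 difference -0.91, adjusted p = 0.00289, limma).

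**Figure D2:**
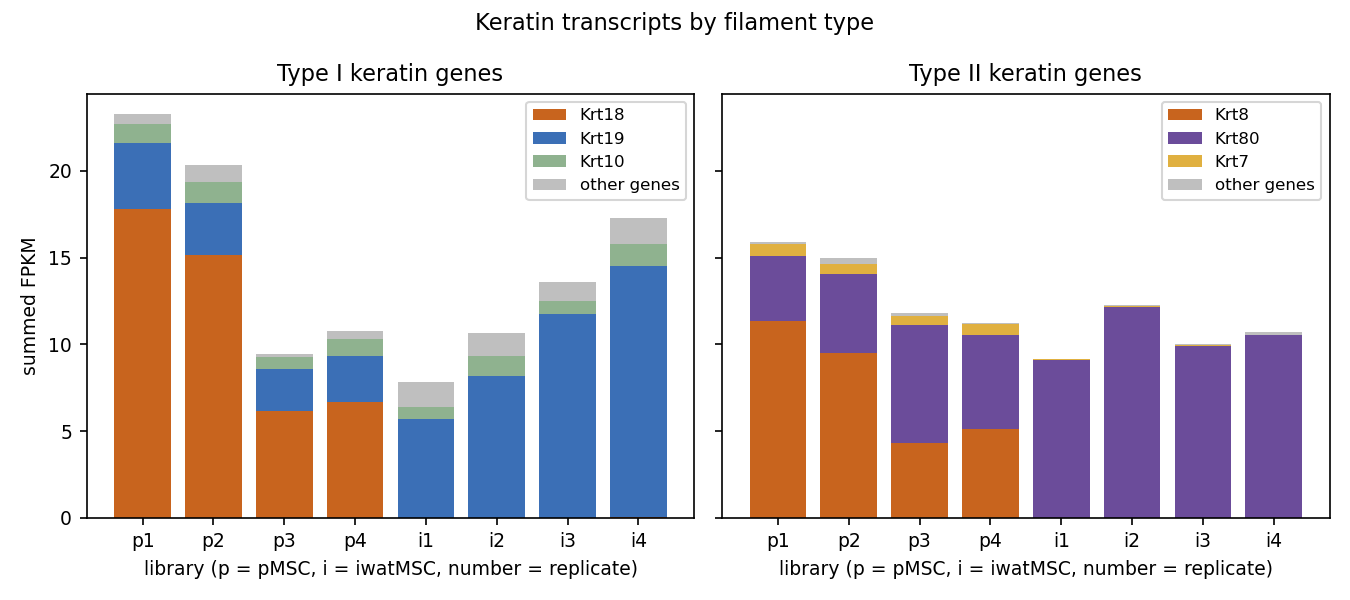
Summed FPKM (y axis, linear, from 0) of the type I and the type II keratin genes in each library (p, pMSC; i, iwatMSC; number, replicate), divided by gene. Krt18 and Krt8 segments appear in the pMSC bars, whereas the iwatMSC bars consist mainly of Krt19 (type I) and Krt80 (type II).

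Among the claudins, Cldn4 behaved like Krt8. It stood at 5.97, 5.47, 2.42 and 2.65 FPKM in pMSC replicates 1 to 4 and was listed at 0 in all 4 iwatMSC libraries. The pMSC mean of 4.13 ± 1.85 (SD, n = 4) was 40.1-fold the 0.103 FPKM of 3 fragments in a library. Cldn4 has a single exon and 1 annotated transcript, so these values do not depend on a division between isoforms.

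Cldn3, the other gene of that neighbouring pair, did not separate the groups. It stood at 1.54, 1.60, 0.695 and 0.980 FPKM in pMSC and at 0.929, 6.02, 1.66 and 1.42 FPKM in iwatMSC. The mean was 1.20 ± 0.439 in pMSC and 2.50 ± 2.36 in iwatMSC (SD, n = 4 each), and the second of these rested on replicate 2, which held about 122 fragments (101 to 146) where the other 3 iwatMSC libraries held 19 to 34. Cldn3 and Cldn4 therefore differed in iwatMSC, where the first was detected in every library and the second in none.

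Cldn7, the claudin that binds EPCAM, stood at 1.24, 0.691, 0.328 and 0.379 FPKM in pMSC and at 0.0468, 0.0747, 0.0947 and 0 FPKM in iwatMSC. The groups did not overlap, although the pMSC libraries held only 7 to 17 fragments each. In pMSC replicate 1, 0.630 of the FPKM came from a short annotated transcript and 0.608 from the longest one, and the short one was at or near 0 in the other 3 pMSC libraries. On the longest transcript alone replicate 1 stood at 0.608 and replicate 2 at 0.673 FPKM, both still above replicates 3 and 4.

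Epcam stood at 1.08, 0.870, 0.459 and 0.590 FPKM in pMSC, and in iwatMSC at 0, 0, 0.0602 and 0 FPKM. Spint2 stood at 1.53, 1.72, 0.757 and 0.960 FPKM in pMSC, and in iwatMSC at 0, 0, 0 and 0.0920 FPKM. Both separated the groups, with 15 to 35 fragments per pMSC library for each and about 2 fragments in the 1 iwatMSC library that was not at 0. The Spint2 fragments were assigned mostly to Spint2-202 in pMSC replicates 1 to 3 and to Spint2-201 in replicate 4, so its gene sum is the steadier value. Only 1 of the 5 annotated Epcam transcripts was in the table.

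The pMSC libraries did not share 1 level of these genes. Replicates 1 and 2 both exceeded replicates 3 and 4 in 8 of the 9 genes, an order found in 24.7% of the 13345 tested genes and in 21.7% of the 18583 genes that reached 0.3 FPKM in a library. The 9 genes are not independent of each other, and this order was noticed in these libraries. Relative to Krt18 in the same library, Cldn4 varied least (0.335, 0.362, 0.394 and 0.397, a coefficient of variation of 7.93%), followed by Krt8 (9.74%), Cldn7 (17.6%), Epcam (20.3%), Spint2 (20.8%) and Cldn3 (22.4%). Krt19 (35.9%) and the gene sum of Krt7 (47.2%) kept to Krt18 least.

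Markers of other cells of the pancreas moved between the same libraries. Acinar cells secrete the digestive enzymes, and their 21 listed genes summed to 379, 207, 70.1 and 89.4 FPKM in pMSC replicates 1 to 4 and to 2.15 to 4.16 FPKM in iwatMSC. Of these 21 genes, 15 were tested, 14 were higher in pMSC and 0 lower, beside 9.02% higher and 10.4% lower over all tested genes. Only 1 of the 15 averaged 1 FPKM in iwatMSC, so the others passed the filter through pMSC alone. Such genes could hardly be called lower, and nothing is read from the comparison. In 19 of the 21 replicates 1 and 2 were above 3 and 4 (24.7% over all tested genes), as in 8 of the 9 epithelial genes. The acinar-defining factor Ptf1a was at no more than 0.207 FPKM. The ratio of Krt18 to the chymotrypsinogen gene Ctrb1 was 0.157, 0.189, 0.284 and 0.225, so Krt18 fell less than Ctrb1 between these libraries. Whether acinar RNA or cells contribute to the levels of the 9 genes was not tested.

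Mesothelial genes were also higher in pMSC but in another order. Their 11 listed genes summed to 29.7 to 52.6 FPKM in pMSC and 7.20 to 12.9 in iwatMSC. Of 6 tested, 5 were higher in pMSC (9.02% over all tested genes). Only 1 of the 6 averaged 1 FPKM in iwatMSC, so nothing is read from that count either. Among the 11, 0 had replicates 1 and 2 above 3 and 4 (24.7% over all tested genes). The mesothelial and stromal factor Wt1 stood at 12.2, 14.1, 15.8 and 16.0 FPKM in pMSC and at 0 in iwatMSC. Upk3b stood at 2.13 to 7.52 FPKM in pMSC, Lrrn4 at 1.28 to 6.60 and Upk1b at 1.64 to 6.22. In iwatMSC Upk3b and Lrrn4 were at 0 and Upk1b at no more than 0.152 FPKM. Msln, a marker of mature mesothelium, was at no more than 0.151 FPKM in any library. The ratio of Krt18 to Wt1 spanned 0.390 to 1.46, with a coefficient of variation of 62.6%. The part of mesothelial cells in the levels of the 9 genes was not tested either.

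Of the 15 listed duct genes, 6 were tested, of which 3 were higher and 2 lower in pMSC, beside 9.02% and 10.4% over all tested genes. The calls of Muc1 and Bicc1 (higher) were lost on leaving out any 1 library other than iwatMSC replicate 1, and that of Car2 (lower) on leaving out pMSC replicate 1, 2 or 3 or iwatMSC replicate 4 (adjusted p up to 0.111, limma). Duct-defining genes were nearly missing: Cftr was at no more than 0.0292 FPKM, Onecut1 at no more than 0.0415, and Ambp at 0 in all 8 libraries. The summed duct list, 4579 to 6143 FPKM in pMSC and 3327 to 3701 in iwatMSC, was almost wholly osteopontin (Spp1), which stromal cells also make. Skin and mammary markers, which bear on iwatMSC because mammary gland lies within the inguinal fat of mice, summed to 5.29 to 8.41 FPKM in pMSC and 3.99 to 5.37 in iwatMSC. Krt5 and Krt14 were at 0 in all 8 libraries, and Csn3 was at no more than 0.785 FPKM. Of the 14 listed, 2 were tested. Sfn was not called (2.58 ± 0.528 against 2.45 ± 0.734 FPKM). Lcn2 was higher in pMSC (2.20 ± 0.889 against 0.482 ± 0.727 FPKM, adjusted p = 0.0275, limma). It passed the filter through pMSC alone, and its call was lost in 5 of 8 fits with 1 library left out. Islet markers summed to no more than 2.45 FPKM in any library. Of 7 endothelial and 7 leukocyte markers 1 and 2 were tested, and all 3 were lower in pMSC, beside 10.4% over all tested genes. The leukocyte marker Lyz2, too low to test, went the other way without overlap (0.815 to 1.72 FPKM in pMSC, 0 to 0.285 in iwatMSC). Stromal markers were abundant in both groups, at 1345 FPKM or more in every library. Whether duct, skin, mammary or islet cells contributed to the 9 genes was not tested.

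**Figure D3:**
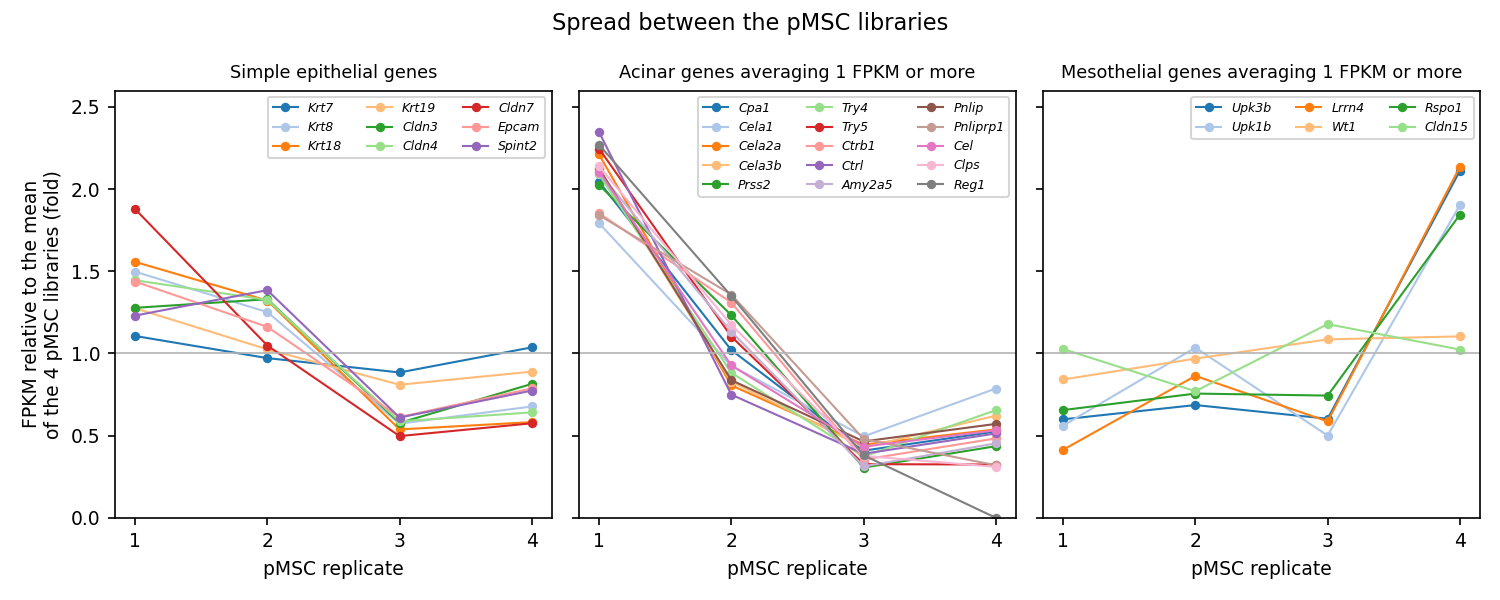
FPKM of each gene divided by its mean over the 4 pMSC libraries (y axis, fold, linear) in pMSC replicates 1 to 4 (x axis; lines only join the points of a gene). On gene sums, all simple epithelial genes but Krt7, and the acinar genes shown, are higher in replicates 1 and 2 than in 3 and 4. The mesothelial genes Upk3b, Upk1b and Lrrn4 are highest in replicate 4.

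Other genes of epithelium were then counted to see how far the list of 9 extended. The table held 154 further junction, polarity, epithelial factor, surface protease, EPCAM partner, filament linker, keratin and claudin genes. Of these, 39 averaged 1 FPKM and were tested: 9 were higher in pMSC, 3 were lower and 27 were not called. That is 30.8% called, beside 19.4% over all tested genes (9.02% higher and 10.4% lower), and the median log2 difference was 0.19, beside -0.03 over all tested genes. Among the 39, 1 gene (Cxadr, called higher) averaged under 1 FPKM in iwatMSC and 0 did so in pMSC. The adjusted p-values below are from limma with Benjamini-Hochberg adjustment over all 13345 genes.

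Of the 14 tested junction genes, 5 rose in pMSC and 0 fell. The nectin Nectin2, an immunoglobulin-like adhesion molecule, stood at 45.2 ± 3.35 FPKM in pMSC and 15.7 ± 4.10 in iwatMSC (log2 difference 1.49 ± 0.15 SE, adjusted p = 0.000165). Cxadr, a tight junction protein and virus receptor, stood at 2.36 ± 0.466 and 0.427 ± 0.203 FPKM (1.24, adjusted p = 0.00032). It passed the filter through pMSC alone and could hardly have been called lower, so nothing is read from its call. Nectin1 rose less (0.40, adjusted p = 0.0038). The desmosomal plakoglobin Jup was higher by 0.54 (adjusted p = 0.0372), a call lost on leaving out any of pMSC replicates 1, 3 or 4 or iwatMSC replicates 1, 2 or 3 (adjusted p between 0.0613 and 0.0894).

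E-cadherin (Cdh1), the adherens junction cadherin that defines epithelium, averaged under 1 FPKM over the 8 libraries and was not tested. It stood at 1.68, 1.42, 1.21 and 1.63 FPKM in pMSC and at 0.0564, 0.169, 0.0693 and 0.129 FPKM in iwatMSC. The groups did not overlap, and Cdh1 did not share the order of Krt18 among the pMSC libraries: the ratio of Krt18 to Cdh1 was 10.6, 10.7, 5.09 and 4.10. Of the 115 genes too low to test, 38 were at 0 in all libraries, 15 had every pMSC library above every iwatMSC library and 4 had every one below. Over the 18583 genes that reached 0.3 FPKM the shares were 10.1% and 12.2%. That set is unlike the 115, as it includes abundant genes and leaves out those under 0.3 FPKM. Nothing is therefore read from the comparison. The 4 that were below were Spint1, the relative of Spint2 (0.668 ± 0.0878 against 0.941 ± 0.201 FPKM), Krt20, Krt36 and Fam83h. Among the 15 above, the desmosomal cadherin Dsg2 (0.346 ± 0.165 FPKM) and Cldn6 (0.344 ± 0.221) were listed at 0 in all iwatMSC libraries and had replicates 1 and 2 above 3 and 4, as Krt8 did.

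Of 19 transcriptional and splicing regulators of epithelium in the table, 3 were tested, of which 2 rose and 1 fell in pMSC. Among those too low to test, Grhl2, a factor that drives Cldn4, Epcam and Cdh1 in epithelial cells, was at no more than 0.0515 FPKM, Ovol2 was listed at 0 in all 8 libraries, and the epithelial splicing regulator Esrp1 was at no more than 0.195 FPKM. Its relative Esrp2 stood at 1.05, 1.01, 0.671 and 0.869 FPKM in pMSC and at 0.576, 0.297, 0.452 and 0.569 FPKM in iwatMSC, without overlap. Klf5 rose in pMSC (3.0 ± 0.506 against 1.22 ± 0.215 FPKM, log2 difference 0.84, adjusted p = 0.00142), as did the circadian repressor Bhlhe41 (3.70 ± 0.524 against 1.84 ± 0.342 FPKM, 0.73, adjusted p = 0.00309), whereas Klf4 fell (12.9 ± 1.12 against 31.1 ± 2.23 FPKM, -1.20, adjusted p = 1.42e-05). Of the receptors of the hepatocyte growth factor family, whose ligands are activated by proteases that SPINT2 inhibits, Mst1r rose (0.53, adjusted p = 0.0157) and Met fell (-0.75, adjusted p = 0.000754). The call of Mst1r was lost with the unequal-variance test (adjusted p = 0.062) and without pMSC replicates 1 and 2 together (adjusted p = 0.0955).

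None of the 5 tested linkers of keratin filaments was called. Plectin (Plec), which joins filaments to each other and to junctions, was at 30.4 ± 2.90 and 37.1 ± 3.75 FPKM (-0.28, adjusted p = 0.066, and 0.0491 without pMSC replicate 4). Of the 10 tested partners of EPCAM, Fhl2, which carries the EPCAM intracellular domain to the nucleus, rose (0.79, adjusted p = 0.00192) and the other 9 were not called. Of the other claudins, Cldn12 and Cldn15 were tested and not called (adjusted p = 0.506 and 0.31).

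The mesenchymal filament gene vimentin (Vim) was far above the epithelial genes in both groups, and stood at 979 ± 41.8 FPKM in pMSC and 1223 ± 134 in iwatMSC. Among 13 tested mesenchymal transcription factors, of which the Snail and Zeb families read E-boxes such as those printed above, 8 fell in pMSC and 3 rose, beside 10.4% and 9.02% over all tested genes. Among those that fell were Twist2 (-1.50, adjusted p = 4.45e-07), Twist1 (-1.50, adjusted p = 3.92e-06) and Snai2 (-1.19, adjusted p = 0.00984). The call of Snai2 was lost with the unequal-variance test (adjusted p = 0.0639) and without pMSC replicates 1 and 2 together (adjusted p = 0.0623). Of the other tested genes of the Snail and Zeb families, Zeb1 rose (13.5 ± 2.18 against 8.56 ± 1.20 FPKM, 0.60, adjusted p = 0.0111). Snai1 and Zeb2 were not called. Of 9 tested filament genes other than keratins, 3 rose and 3 fell, with the muscle filament Des (2.15, adjusted p = 8.24e-05) and Nes (1.31, adjusted p = 0.00734) higher and the neurofilaments Nefl (-2.97, adjusted p = 8.05e-05) and Nefm (-2.11, adjusted p = 0.0012) lower. Nefl averaged 0.531 FPKM in pMSC and passed the filter through iwatMSC alone, so it could hardly have been called higher. The call of Nes was lost under the same alternatives as that of Snai2 (adjusted p = 0.0639 and 0.0795).

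**Figure D4:**
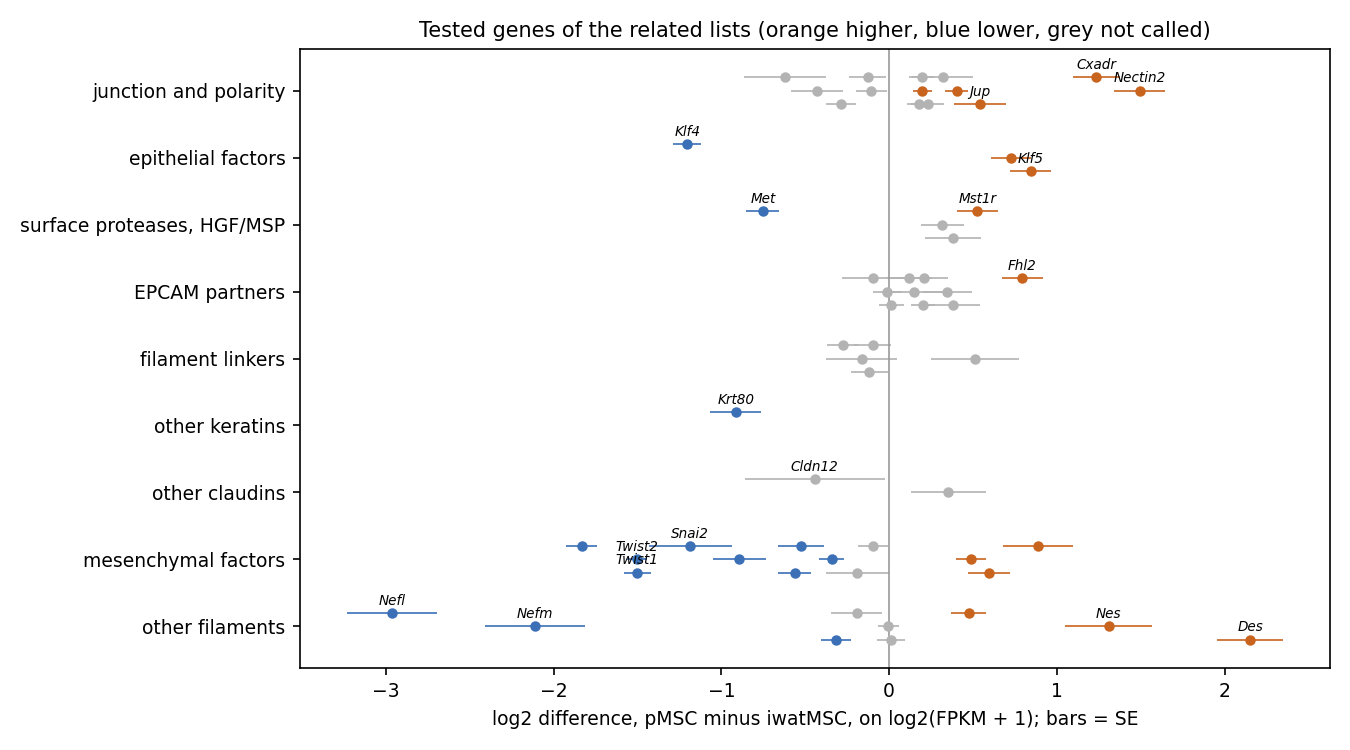
Log2 difference between pMSC and iwatMSC (x axis, on log2(FPKM + 1), with SE bars) of each tested gene in the related lists (rows). Orange points were higher and blue points lower in pMSC at an adjusted p under 0.05, and grey points were not called; the mesenchymal factors hold 8 lower and 3 higher points.

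The protein-coding genes whose pattern over the 8 libraries was most like the mean of the 5 genes that averaged 1 FPKM were Wnt5a, Shroom3, Gucy1b1, Eno3 and Hlx. Likeness was the root mean square difference of centred log2(FPKM + 1), and it was 0.125 for Wnt5a and 0.19 to 0.22 for the others. That mean mixes Krt19 with Krt18, so the nearest genes to each were also listed, a choice made after their values were seen. For Krt18 the nearest was Krt8 (0.256), followed by the digestive enzyme genes Cela2a (0.303), Try4 (0.307), Prss2 (0.322) and Cela3b (0.327). For Krt19 they were Tmem35a (0.149), Tcf24 (0.204) and Hoxb9 (0.207).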

How the data were processed

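Per the labels and the study's methods, total RNA of 4 pMSC and 4 iwatMSC libraries was enriched for mRNA and sequenced as paired reads. The authors aligned reads to GRCm38.p6 with STAR and deposited 1 table of FPKM per transcript from StringTie. The strand setting was not stated, so overlapping opposite-strand genes could not be separated; those overlapping Krt7, Krt8 and Cldn3 were at no more than 0.0676 FPKM.

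Of 136535 transcripts, 99.881% were matched to GENCODE M21 and summed per gene. Genes with a mean of at least 1 FPKM were tested on log2(FPKM + 1) with limma 3.58.1 (R 4.3.3, lmFit and eBayes with trend, two-sided), with Benjamini-Hochberg adjustment over all 13345 genes and a threshold of 0.05. limma was checked on simulated data. Relative depth was estimated from the steps of FPKM times length, and no count test was run. Sequences came from RefSeq tables.

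Replicates were numbered in accession order. The 9 genes, the lists and the tests were chosen with earlier results of these data known. Named genes were all 9, up to 4 called genes of largest change per list (the 2 with the highest FPKM if the list had no call), and the 5 genes most like them. Cdh1, Dsg2, Cldn6, Grhl2, Ovol2, Esrp1, Esrp2, Spint1, Krt20, Krt36, Fam83h, Zeb1, Snai1, Zeb2, Vim, Sox9, Slc4a4, Sfn, Csn3, Lyz2 and the cell type markers at or near 0 were named after their values were seen. Alternatives were other pseudocounts, filters and scalings, an unequal-variance test, each library left out, and pMSC replicates 1 and 2 left out together, the last chosen after seeing the data. Some genes of the lists are not reported here.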

Additional observations from a re-analysis of the deposited data

Results flagged for a closer look

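A library was set apart when its gap to the nearest of the other 3 in its group exceeded Dixon's 95% critical value of the group's range. This happened in 10 of 98 groups of 4 libraries over 53 genes, and chance gives about 1 in 20. Of these, 4 were in the 9 epithelial genes, all in iwatMSC. Cldn3 was at 6.02 FPKM in iwatMSC replicate 2. Krt18 was at 0.0443 FPKM in iwatMSC replicate 4, Epcam at 0.0602 FPKM in iwatMSC replicate 3 and Spint2 at 0.0920 FPKM in iwatMSC replicate 4, where the other 3 libraries were listed at 0, so that 1 or 2 fragments were enough. The other 6 were Bicc1 (51.3 FPKM), Col3a1 (267), Lcn2 (1.57) and Gcg (0.115) in iwatMSC replicate 1, Cela2a in iwatMSC replicate 3 (0.394) and Upk3b in pMSC replicate 4 (7.52).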

How the results depend on the processing

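No paired analysis was possible because no label ties a pancreas library to an adipose library, although both organs came from the same mice. Each of the 9 genes kept the sign of its difference in all 13 alternatives in which it was computed. Their median log2 difference of 0.77 moved with the scale, to 2.86 at a pseudocount of 0.1, 0.20 at 5 and 1.35 after rescaling to TPM, and lay between 0.68 and 0.85 with 1 library left out and at 0.59 without pMSC replicates 1 and 2 together. The 9 other epithelial genes called higher became 17 without the filter on low values and 4 with a mean of at least 5 FPKM. They became 6 with the unequal-variance test and 7 to 9 with 1 library left out. The 3 called lower became 5 without the filter, 2 with a mean of at least 5 FPKM and 3 to 5 with 1 library left out (5 without iwatMSC replicate 1). They stayed at 3 with the unequal-variance test. Over all genes, 1204 higher and 1385 lower became 694 and 734 with the unequal-variance test, 793 and 698 without pMSC replicates 1 and 2 together, and 907 to 1369 and 895 to 1479 with 1 library left out (895 without iwatMSC replicate 3). The split was 1370 and 1139 after rescaling to TPM, and 1356 and 1178 with median-of-ratios scaling. Leaving out 1 library changed the call of 8 of 42 named genes that were tested. No direction reversed. The causes were not tested. Krt7, Cldn7, Epcam and Spint2 rest on at most 37 fragments a library. A listed 0 has an upper bound of 3.69 fragments in the 95% exact Poisson interval, slightly above the 3 fragments used as a floor.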
